A study of Mus musculus with 24 samples.

Results

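Zfp937, Znfx1, Zhx3, Scand1 and Ncoa3 are 5 genes of distal mouse chromosome 2 whose products bind nucleic acids through zinc fingers or work with the factors that do. They were chosen by name and function, and were found on a custom chromosome 2 array through the gene symbols of its platform annotation. They make up 5 of the 341 genes measured, with 6 transcripts, 30 exon rows and 143 probes. All exon rows of the 5 genes had a value on all 24 arrays, and no filter on low values was applied.

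Each of 4 tissues, the whole brain, the liver, the epididymal white fat pad (called adipose tissue here) and the gastrocnemius (called muscle), was sampled in 3 B6.S-2 congenic and 3 B6 mice. By what is known of the strain, B6.S-2 mice are C57BL/6J mice in which the distal part of chromosome 2 comes from SPRET/Ei, and the ends of the donor segment are not given in the labels used here. The sample titles set the genotype, while the treatment field describes every sample as congenic. The growth protocol, shared by all samples, names F2 mice, chow, and for some congenic males a high fat diet, and ties no sample to a diet, a sex or an age.

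C2H2 zinc fingers are small folds held by a metal ion that read short stretches of DNA, and genes that encode many of them in a row form one of the most numerous families of mammalian regulators. The SCAN domain lets such proteins pair with each other. Coactivators do not read DNA themselves but are recruited by factors such as nuclear receptors, and bring enzymes that modify histones. Zfp937 is named as one of the zinc finger protein genes. Znfx1 encodes a helicase with NFX1-type zinc fingers that senses viral RNA in mammals and acts in small RNA inheritance in the worm Caenorhabditis elegans. Zhx3 encodes a protein with zinc fingers and homeoboxes that acts as a transcriptional repressor. Scand1 encodes a small protein with a SCAN domain. Ncoa3, also known as SRC-3 or AIB1, encodes a steroid receptor coactivator.

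The exon rows placed the 5 genes on chromosome 2 in coordinates whose build is not given in the sources used here. Zfp937 lay on the plus strand from base 150301666 to 150304026, as 1 exon row of 2361 bases with 14 probes. Scand1 lay on the minus strand from 156375195 to 156375883, as 2 transcripts with 3 exon rows and 30 probes. Its 34-base exon row overlapped an exon row of Cnbd2, on the other strand, by 34 bases. Zhx3 lay on the minus strand from 160829134 to 160843336, with exon rows of 588 and 5841 bases. Its span overlapped that of Plcg1 by 9975 bases, and no exon row of Zhx3 overlapped one of Plcg1. Ncoa3 lay on the plus strand from 166097996 to 166133559 with 23 exon rows of 3 probes each. Znfx1 lay on the minus strand from 167098911 to 167101624, as 1 exon row of 2714 bases with 14 probes.

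The 250 bases before the annotated start are shown for Zfp937, whose gene value rose, and for Scand1, the member whose group means were most like those of Zfp937. They are RefSeq sequences of GRCm38.p6, at chr2:150217849-150218098 on the plus strand and chr2:156312705-156312954 on the minus strand. Capitals mark a CCAAT box (CCAAT) in Zfp937 and GC boxes (GGGCGG) on either strand in Scand1.
Zfp937: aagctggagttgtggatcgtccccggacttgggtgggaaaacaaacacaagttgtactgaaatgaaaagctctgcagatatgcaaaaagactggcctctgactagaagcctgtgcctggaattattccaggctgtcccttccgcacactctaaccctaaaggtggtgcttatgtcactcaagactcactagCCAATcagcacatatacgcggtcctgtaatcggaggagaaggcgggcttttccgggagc
Scand1: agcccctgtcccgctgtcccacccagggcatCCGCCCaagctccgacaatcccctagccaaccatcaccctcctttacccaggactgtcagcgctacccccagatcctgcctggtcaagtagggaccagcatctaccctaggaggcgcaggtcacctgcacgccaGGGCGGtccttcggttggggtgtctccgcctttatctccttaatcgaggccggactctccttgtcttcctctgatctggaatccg
The CCAAT box of Zfp937 began 59 bases before the start, and 33.8% of 32851 mouse promoters of the same length held one on either strand. The GC boxes of Scand1 began 219 and 85 bases before the start, with 32.7% of promoters holding one. Scand1 also held a nuclear receptor half-site (AGGTCA) that began 102 bases before the start, as 14% of promoters did on either strand. None of these motifs overlapped another. The Zfp937 window was 50.4% G and C and that of Scand1 61.6%, against a median of 52.4% over all promoters.

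Gene values are log2 intensities after background correction and quantile normalization, summarised over the exon rows of a gene by median polish. Changes are congenic minus B6 with the standard error (SE) of a limma fit over all 8 groups, n = 3 per group. A gene was called where the Benjamini-Hochberg adjusted p over the 341 genes was under 0.05. A lower value in a bulk tissue can come from fewer cells of a type or from less RNA per cell, which cannot be told apart. Arrays had median raw intensities of 232 to 3571, and replicates correlated at 0.920 to 0.989. The brightest exon row of the 5 genes read 10854, below the array maximum. The skeletal muscle markers Tnnc2 and Mylk2 were called higher in muscle than in adipose tissue, while Myl9, which smooth muscle also expresses, was called higher in adipose tissue.

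**Figure D1:**
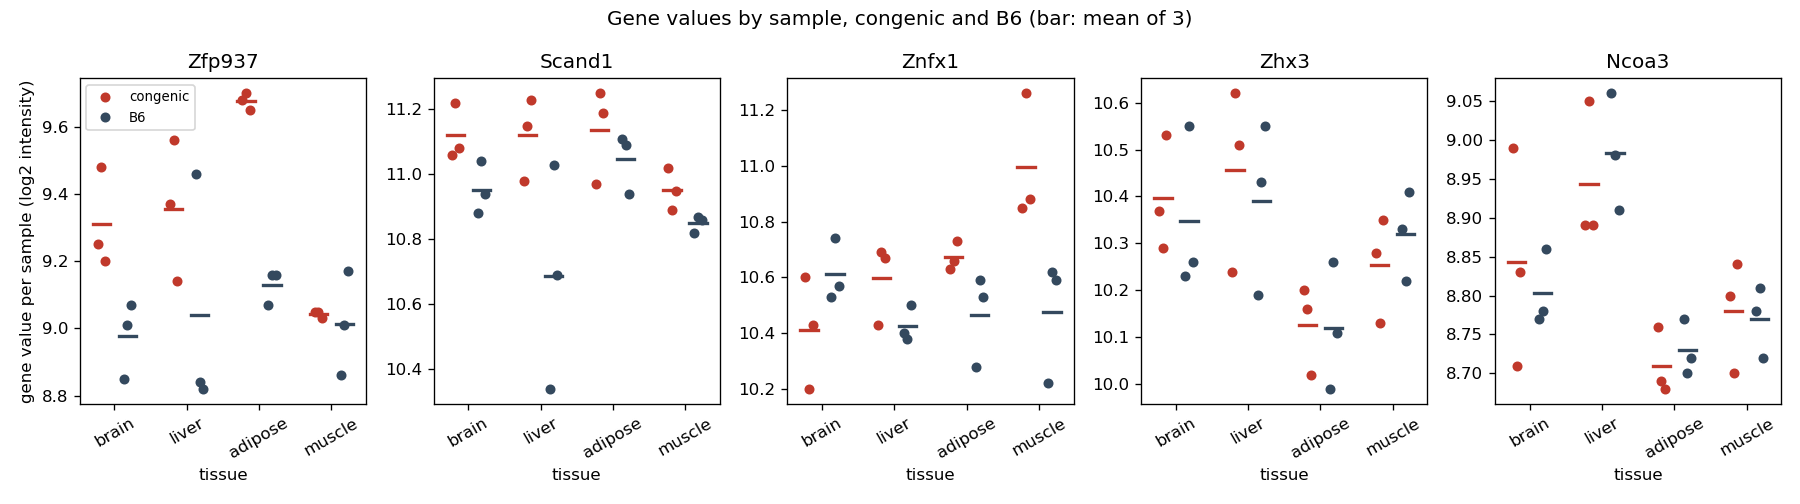
Log2 gene values of the 5 genes in each of the 24 samples, by tissue, with congenic samples in red left of B6 samples in dark blue and bars at the mean of 3; each panel has its own vertical scale. The 3 congenic adipose samples of Zfp937 lie between 9.65 and 9.70, above the B6 adipose samples at 9.07 to 9.16.

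Zfp937 rose in congenic adipose tissue and in the average over the 4 tissues. In adipose tissue its log2 gene value was 9.68, 9.70 and 9.65 in congenic mice, against 9.07, 9.16 and 9.16 in B6 mice. The groups did not overlap, as 5.28% of genes lay above B6 there, and the distance between them was many times the spread within either (SD 0.02 in congenic and 0.05 in B6 mice). The change was 0.55 ± 0.13 on the log2 scale, or 1.46-fold (95% interval 0.27 to 0.83, adjusted p = 0.0416). It was the only gene called higher in congenic adipose tissue, where 1 of 341 genes (0.293%) was called higher and 1.47% were called in either direction.

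In brain, Zfp937 read 9.25, 9.48 and 9.20 in congenic mice and 8.85, 9.01 and 9.07 in B6 mice. These groups did not overlap either, but the change of 0.34 ± 0.13 was not called (adjusted p = 0.425). Of all genes, 6.45% lay above B6 without overlap in brain, and 0.88% were called in brain in either direction. In liver the gene read 9.37, 9.56 and 9.14 in congenic mice and 9.46, 8.84 and 8.82 in B6 mice. A B6 liver sample lay above 2 of the 3 congenic ones, and the change of 0.32 ± 0.13 was not called (adjusted p = 0.325). In muscle it read 9.05, 9.05 and 9.03 in congenic mice and 8.86, 9.01 and 9.17 in B6 mice. The muscle groups overlapped, with a change of 0.03 ± 0.13 (adjusted p = 0.975).

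Averaged over the 4 tissues, the change of Zfp937 was 0.31 ± 0.07, or 1.24-fold (adjusted p = 0.0162), and it was 1 of 3 genes (0.88%) called higher and of 7 (2.05%) called in either direction. Its change was not shown to differ between tissues (interaction adjusted p = 0.615, with 0.293% of genes called). Adjusted over all 3099 exon features instead of 341 genes, the same changes did not pass (adjusted p = 0.185 in adipose tissue and 0.051 averaged over tissues). A pair of arrays stood apart in seminal vesicle secretory genes, 1 of them congenic adipose tissue, and without them the adipose change of Zfp937 was 0.55 with an adjusted p of 0.0847. The adipose call also ended without any 1 of the 6 adipose arrays (0.52 to 0.56, adjusted p 0.0943 to 0.193), and it held in 10 of the 24 fits that left out 1 array of any tissue. With the well row as a block the adjusted p in adipose tissue was 0.094, and with the replicate number as a block 0.069. With the well row as a block the average over tissues was 0.34 and was no longer called (adjusted p = 0.072), and all 4 arrays in well row A of slide 1 were congenic.

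Genes of the seminal vesicle, a neighbouring tissue, were also higher in congenic adipose samples, with none of them called. All 6 of 6 measured genes averaged 10.52, 9.37 and 9.30 on the log2 scale in congenic and 8.39 to 9.16 in B6 adipose samples. The groups did not overlap, and 1 congenic sample stood above the rest. The 8 epididymis and testis genes spanned 11.61 to 11.81 in congenic and 11.64 to 11.68 in B6 adipose samples. The 4 adipocyte genes averaged 10.50 to 10.63 in congenic and 10.51 to 10.56 in B6 adipose samples. They did not move together: 2 of the 4 lay above 0, and Adig, the adipogenin gene, was called lower, at 11.44, 11.47 and 11.38 in congenic and 11.81, 11.78 and 11.94 in B6 adipose samples (−0.41 ± 0.08, adjusted p = 0.0087). The part of these tissues in the change of Zfp937 was not tested.

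**Figure D2:**
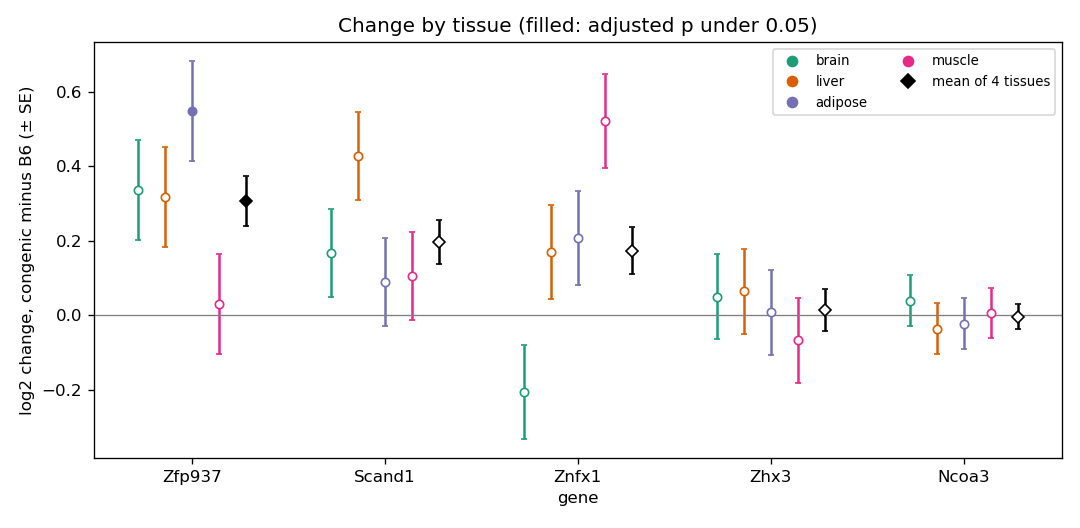
Log2 change of each gene, congenic minus B6, with its standard error (vertical bars), in the 4 tissues (circles) and averaged over them (diamonds); filled symbols have an adjusted p under 0.05. Of the 25 points, those of Zfp937 in adipose tissue (0.55) and on average (0.31) are filled.

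The deposited probe table gives the change along the Zfp937 transcript. Its 14 probes are taken here in the order of the number in their name, whose span of 1481 fits within the 2361 bases of the exon row. Averaged over tissues, probes 9, 10, 11 and 12 changed by 1.49, 0.86, 1.14 and 1.28 on the log2 scale, a run of 4 adjacent probes. The 10 other probes ranged from −0.44 to 0.34 with a median of 0.14. The run was picked after its values were seen and is given as a description. Of all 13388 probes, 2.14% had an average change above 0.5, as these 4 of 14 had.

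All 4 probes of the run lay above 0 in each of the 4 tissues. Their median change was 1.58 in brain, 0.89 in liver, 1.58 in adipose tissue and 0.49 in muscle. The medians of the 10 other probes were −0.05, −0.05, 0.21 and −0.00 in the same tissues. Changes were not limited to the run: in adipose tissue 9 of the 10 other probes lay above 0, up to 0.75, and in liver probe 8 changed by 1.47, more than any probe of the run there (at most 1.40). So the gene value near 0 in muscle stood over a run of probes that was also above 0 there, by 0.14 to 0.87.

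Probe 9 was the steepest. In adipose tissue it read 8.68, 8.99 and 8.46 in the congenic columns and 6.35, 6.29 and 6.07 in the B6 columns, a change of 2.47 (adjusted p = 0.00093 over 13388 probes). In brain it read 7.96, 8.89 and 6.92 in the congenic columns and 5.91, 5.77 and 5.80 in the B6 columns, a change of 2.09 (adjusted p = 0.005). In liver probe 9 read 6.76, 8.13 and 6.61 in the congenic columns and 6.31, 6.58 and 6.18 in the B6 columns. In muscle it read 6.69, 6.47 and 6.39 in the congenic columns and 5.92, 5.97 and 5.95 in the B6 columns. Neither change of probe 9 was called. Its average change over tissues was 1.49 ± 0.19 (adjusted p = 3.1e-05).

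Probe 11 was called on the average as well, at 1.14 ± 0.22 (adjusted p = 0.005), while probes 10 (adjusted p = 0.058) and 12 (adjusted p = 0.12) were not. Of all probes, 0.291% were called higher on the average, 0.0523% in adipose tissue and 0.209% in brain. The run made up 12.3% of the summed linear signal of the 14 probes, and probe 5 alone 37.4%. An exon row is the linear mean of its probes, so it weights them by brightness. Without the run, the log2 of the linear mean of the 10 other probes still differed by 0.33 in adipose tissue (9.61 ± 0.13 in congenic and 9.28 ± 0.04 in B6 mice, SD, n = 3), by 0.17 in liver and by 0.09 in brain. In muscle it was 9.36 in both genotypes. The value without the run was computed after seeing the data and has no test here.

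**Figure D3:**
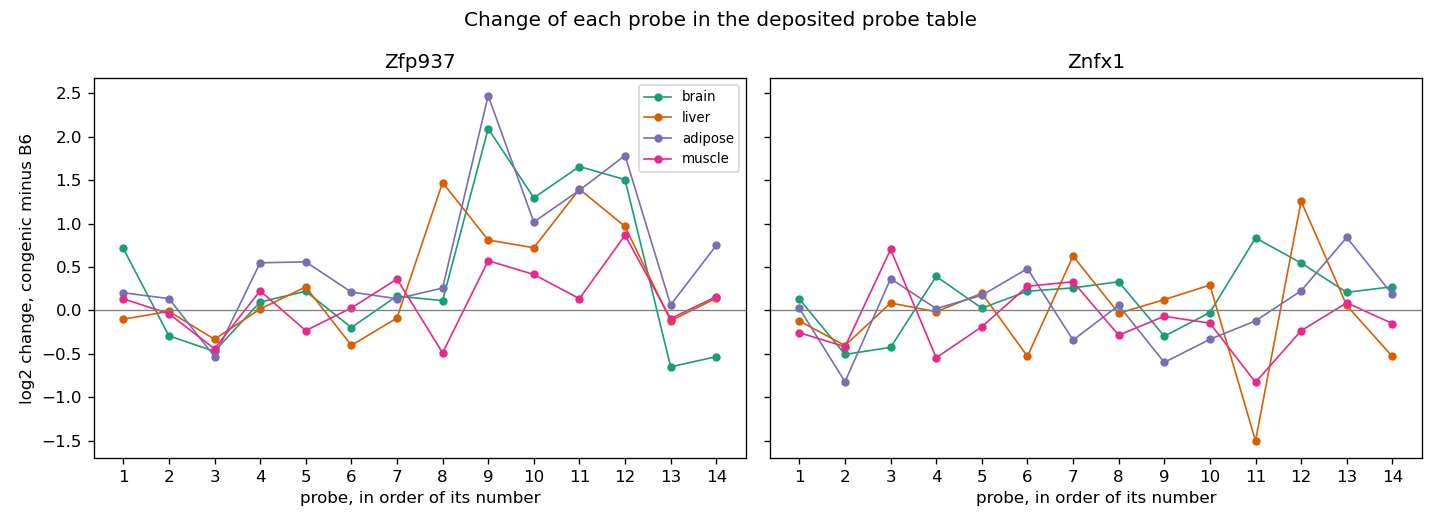
Log2 change, congenic minus B6, of each of the 14 probes of Zfp937 (left) and of Znfx1 (right) in the deposited probe table, in the order of the probe number, with one line per tissue. Probes 9 to 12 of Zfp937 lie above 0 in all 4 tissues, up to 2.47, while Znfx1 has no such run.

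The probe table's columns matched the scanner files of their own group, but only 7 of 24 matched the file of the same replicate number best, so its values are tied to groups and not to single animals. Probe sequences were not in the files used here, and neither a sequence difference between the strains nor binding of related transcripts at these probes was tested. The RefSeq table lists 3 other genes named Zfp within 1 Mb on either side of Zfp937, of which Zfp120 was on the array. Zfp120, the nearest measured gene on one side, changed by 0.03 ± 0.04 on average (adjusted p = 0.817), and 3300002I08Rik on the other side by 0.10 ± 0.05 (adjusted p = 0.326).

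The mean of Scand1 was higher in congenic than in B6 mice in each of the 4 tissues, without a call in any. In liver its log2 gene value was 10.98, 11.15 and 11.23 in congenic mice, against 10.34, 11.03 and 10.69 in B6 mice. The B6 samples were spread widely, and 1 of them lay above the lowest congenic one. The change was 0.43 ± 0.12, or 1.35-fold (adjusted p = 0.0966), where 0.587% of genes were called.

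In brain, Scand1 read 11.06, 11.22 and 11.08 in congenic mice and 10.88, 11.04 and 10.94 in B6 mice, a change of 0.17 ± 0.12 with no overlap. In muscle it read 11.02, 10.89 and 10.95 in congenic mice and 10.82, 10.87 and 10.86 in B6 mice, a change of 0.11 ± 0.12, again with no overlap. Of all genes, 11.4% lay above B6 without overlap in muscle. In adipose tissue it read 10.97, 11.25 and 11.19 in congenic mice and 11.11, 11.09 and 10.94 in B6 mice, a change of 0.09 ± 0.12. The average over tissues was 0.20 ± 0.06, or 1.15-fold (adjusted p = 0.0784).

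Scand1 and Zfp937 were the members with a change above 0 in all 4 tissues, as 7.92% of all genes had. The 3 exon rows of Scand1 changed by 0.32, 0.32 and 0.50 in liver and by 0.20 to 0.22 on average. The 555-base and 557-base rows of its 2 transcripts cover the same stretch, so they are not independent. In liver, 14 of 16 probes of one transcript and 11 of 14 of the other lay above 0, where 49.8% of all probes did. A probe of each was called there, at 2.29 (adjusted p = 0.0081) and 1.67 (adjusted p = 0.017), where 0.314% of all probes were called higher. The first of these was also called on the average over tissues, at 1.02 (adjusted p = 0.0091), although in muscle it lay the other way, at 7.46, 7.43 and 7.95 in the congenic columns and 7.92, 8.79 and 8.49 in the B6 columns. Another probe was called lower on the average, at −0.72 (adjusted p = 0.03, with 1.06% of all probes called lower on the average), so the probes of this short gene did not move as one.

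The liver value of Scand1 rested on single B6 samples: it was 0.26 without B6 liver replicate 1 and 0.63 (adjusted p = 0.001) without B6 liver replicate 2. It passed with median scaling (0.57, adjusted p = 0.006) and with the authors' probe table (0.62, adjusted p = 0.005). Brightness differed between the groups as well: the median raw intensity was 456, 741 and 667 in congenic liver and 454, 232 and 294 in B6 liver. On the same arrays Scand1 read 10.98, 11.15 and 11.23 in congenic liver and 10.34, 11.03 and 10.69 in B6 liver. The part of brightness in the change was not tested. The measured neighbours of Scand1, Phf20, which reads histone marks, and Cnbd2, changed on average by 0.02 ± 0.03 and −0.04 ± 0.05.

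Znfx1 changed most in muscle, short of the threshold, and its probes did not share the direction of its exon row. In muscle its log2 gene value was 10.85, 11.26 and 10.88 in congenic mice, against 10.22, 10.62 and 10.59 in B6 mice. The groups did not overlap, and 1 congenic sample stood above the rest. The change was 0.52 ± 0.13, or 1.44-fold (adjusted p = 0.0607, with 0.587% of genes called in muscle).

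In brain, Znfx1 read 10.60, 10.20 and 10.43 in congenic mice and 10.53, 10.74 and 10.57 in B6 mice, a change of −0.21 ± 0.13. In adipose tissue it read 10.63, 10.66 and 10.73 in congenic mice and 10.28, 10.59 and 10.53 in B6 mice, a change of 0.21 ± 0.13 with no overlap, as 5.28% of genes lay above B6 there. In liver it read 10.43, 10.69 and 10.67 in congenic mice and 10.40, 10.38 and 10.50 in B6 mice, a change of 0.17 ± 0.13. None of these 3 was called. The average was 0.17 ± 0.06 (adjusted p = 0.176). The interaction with tissue had an unadjusted p of 0.0062 and did not pass (adjusted p = 0.234).

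In the deposited probe table a single probe held most of the signal of Znfx1, and the scanner files give no value per probe. Probe 3 of 14 made up 67.8% of the summed linear signal and changed by −0.43, 0.09, 0.36 and 0.70 in brain, liver, adipose tissue and muscle, with the signs and the order of the exon row. In muscle only 4 of the 14 probes lay above 0, and their median was −0.17, where 54.4% of all probes lay above 0. The log2 of the linear mean of the 13 other probes was 8.81 ± 0.16 in congenic and 9.10 ± 0.16 in B6 muscle (SD, n = 3), a change of −0.29. In brain that mean was 9.04 ± 0.16 in congenic and 8.84 ± 0.11 in B6 mice, a change of 0.20. Both signs are the reverse of those of the exon row.

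Median polish of the probe table turned the sign of Znfx1 in all 4 tissues, to 0.17 in brain, −0.03 in liver, −0.07 in adipose tissue and −0.21 in muscle (adjusted p = 0.705), none called. The muscle change was 0.37 (adjusted p = 0.449) by the linear mean of the same probes. It was 0.39 without congenic muscle replicate 2 and also without B6 muscle replicate 1. Probe 11 was called lower in liver at −1.50 (adjusted p = 0.03), and 0.486% of all probes were called lower there. Median raw intensity was 1189, 916 and 1330 in congenic muscle and 1158, 2038 and 3571 in B6 muscle. The 3 skeletal muscle markers averaged 11.84 to 11.93 in congenic and 12.01 to 12.09 in B6 muscle, without overlap. They did not move together: Tnnc2 changed by 0.03, Myl9 by −0.16 and Mylk2 by −0.38. The immune markers averaged 9.90 to 9.98 in congenic and 9.99 to 10.28 in B6 muscle. The endothelial markers averaged 10.04 to 10.139 in congenic and 10.140 to 10.21 in B6 muscle. The ranges of these 2 lists all but touched. The hepatocyte markers averaged 9.77 to 9.85 in congenic and 9.94 to 9.96 in B6 muscle, although 1 of the 3, Hnf4a, changed by 0.09. No single gene of these 4 lists was called in muscle. The 6 seminal vesicle genes averaged 10.42 in congenic muscle replicate 3 and 8.43 to 8.62 in the other muscle arrays. That array and congenic adipose replicate 1 were the pair high in these genes. The part of brightness and of tissue makeup in the muscle change of Znfx1 was not tested. Its neighbour Ddx27, an RNA helicase gene, changed on average by 0.02 ± 0.03.

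**Figure D4:**
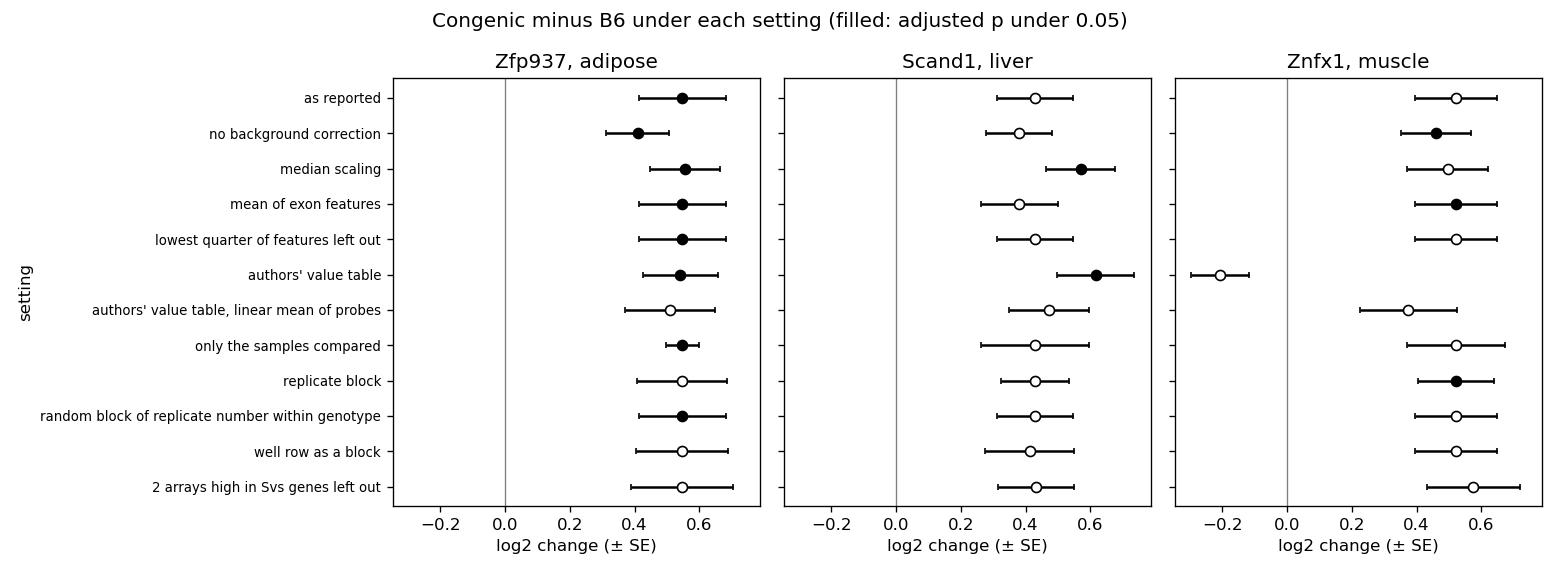
Log2 change, congenic minus B6, with its standard error, of Zfp937 in adipose tissue, Scand1 in liver and Znfx1 in muscle under the reported setting and each alternative; filled points have an adjusted p under 0.05. Zfp937 stays between 0.41 and 0.56, while Znfx1 falls to −0.21 with the authors' value table.

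Zhx3 did not pass in any genotype comparison. Its log2 gene value in brain was 10.37, 10.29 and 10.53 in congenic mice and 10.23, 10.55 and 10.26 in B6 mice. In liver it was 10.24, 10.62 and 10.51 in congenic mice and 10.19, 10.43 and 10.55 in B6 mice. In adipose tissue it was 10.20, 10.16 and 10.02 in congenic mice and 9.99, 10.26 and 10.11 in B6 mice, and in muscle 10.28, 10.13 and 10.35 in congenic mice and 10.33, 10.22 and 10.41 in B6 mice. The groups overlapped in all 4 tissues. The changes were 0.05, 0.06, 0.01 and −0.07, each with an SE of 0.11, and the average was 0.01 ± 0.06 with a 95% interval of −0.11 to 0.13.

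The exon rows of Zhx3 moved in opposite directions between adipose tissue and muscle. The 588-base row read 9.99 ± 0.07 in adipose tissue and 9.69 ± 0.13 in muscle (SD, n = 6, both genotypes), a difference of 0.30 (adjusted p = 0.050 over 3099 exon features). The 5841-base row read 10.26 ± 0.17 in adipose tissue and 10.88 ± 0.14 in muscle, a difference of −0.63 (adjusted p = 1.6e-04). In either direction, 28.6% of exon features were called between these tissues. The gene value, which averages both, differed by −0.16 ± 0.08 (adjusted p = 0.117). Between brain and liver the rows differed by −0.06 and −0.04, neither called.

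Ncoa3 did not pass in any genotype comparison, and its 95% interval on the average over tissues was −0.07 to 0.07 around −0.00 ± 0.03. Its log2 gene value in brain was 8.99, 8.71 and 8.83 in congenic mice and 8.77, 8.78 and 8.86 in B6 mice, a change of 0.04 ± 0.07. In liver it was 8.89, 9.05 and 8.89 in congenic mice and 9.06, 8.98 and 8.91 in B6 mice, a change of −0.04 ± 0.07. In adipose tissue it was 8.76, 8.69 and 8.68 in congenic mice and 8.77, 8.70 and 8.72 in B6 mice, a change of −0.02 ± 0.07. In muscle it was 8.80, 8.70 and 8.84 in congenic mice and 8.78, 8.81 and 8.72 in B6 mice, a change of 0.01 ± 0.07. The groups overlapped in every tissue. Its 23 exon rows divided about evenly on the average over tissues, with 10 above 0 and 13 below 0, from −0.28 at exon 14 to 0.21 at exon 19, and none of these was called (1.23% of all exon features were).

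Exon 6 of Ncoa3, 187 bases with 3 probes, was the one exon row of the 5 genes called between genotypes within a tissue. In brain it read 7.77, 8.09 and 8.24 in congenic mice, against 6.99, 7.44 and 7.54 in B6 mice. The groups did not overlap, and the change was 0.71 ± 0.14 (adjusted p = 0.025), where 0.129% of exon features were called higher. In the other 3 tissues exon 6 lay between 6.43 and 6.80 in both genotypes, with changes of 0.09, 0.01 and −0.01. Over both genotypes its mean was the lowest among exon rows of the 5 genes in liver (6.64), adipose tissue (6.45) and muscle (6.51). The interaction with tissue did not pass for this exon (adjusted p = 0.364). Leaving out the dimmest features removed exon 6 itself, so that setting could not check the brain call. Among the 6 alternatives that kept the row, the brain call held in 3. The call was lost without background correction (0.40, adjusted p = 0.283), with median scaling (0.29, adjusted p = 0.91), with the well row as a block (0.64, adjusted p = 0.163) and without B6 brain replicate 1, congenic brain replicate 2 or congenic brain replicate 3 (0.55, 0.68 and 0.62).

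In the probe table the 3 probes of exon 6 changed by 0.68, 0.32 and 0.07 in brain, none called. The median raw intensity of the brain arrays was 298, 1237 and 511 in congenic and 444, 377 and 470 in B6 mice. The 5 measured neuron markers averaged 10.24 to 10.28 in congenic and 10.38 to 10.51 in B6 brain, without overlap, and 1 of them, Napb, was called lower (−0.63 ± 0.13, adjusted p = 0.0237). Slc32a1 changed by −0.18, Snph by −0.03, Cdh22 by −0.002 and Slc24a3 by 0.05, none called. The 4 measured immune markers lay the other way, at 9.63 to 9.71 in congenic and 9.47 to 9.60 in B6 brain, without overlap and with none called. The part of brightness and of cell makeup in the exon 6 change was not tested.

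**Figure D5:**
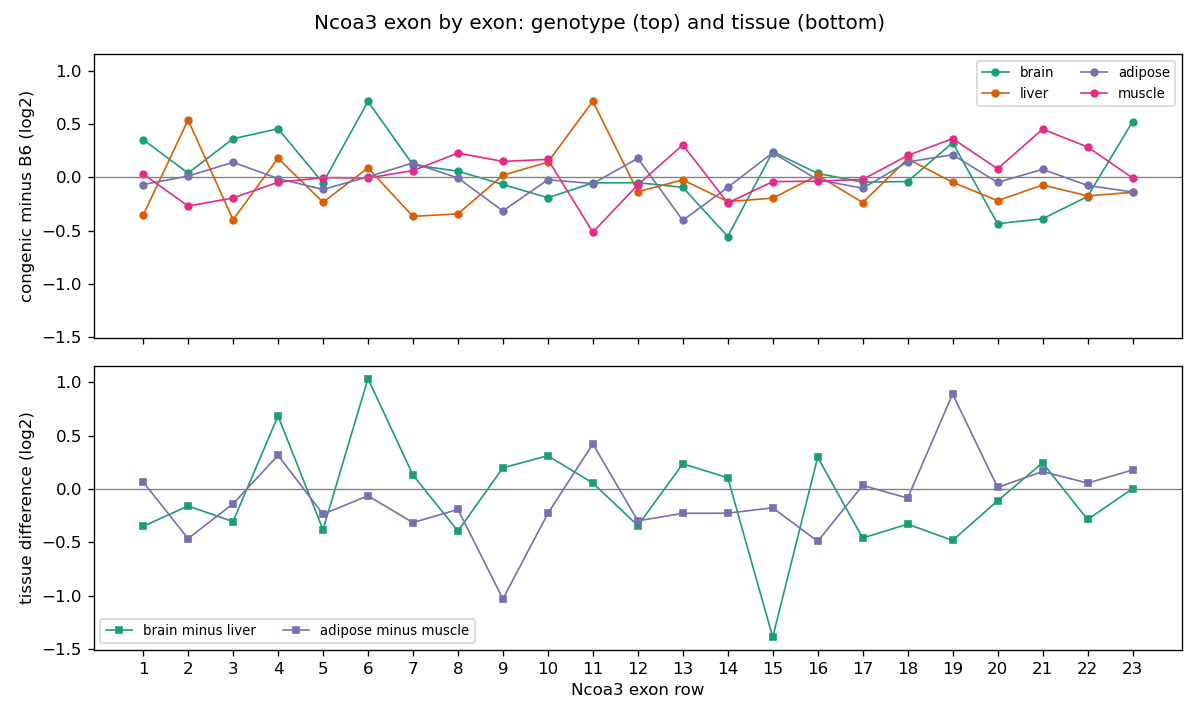
Log2 change of each of the 23 Ncoa3 exon rows, congenic minus B6, in the 4 tissues (top), and the difference between tissues over both genotypes (bottom). Exon 6 stands out in brain at 0.71 (top), and exons 6 and 15 at 1.04 and −1.39 between brain and liver (bottom).

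Between tissues, the exon rows of Ncoa3 were called about as often as all exon features, or less often. The exon rows named below are the widest of the 23, and such extremes lie beyond a gene value that summarises all rows. Tissues were compared within a slide, brain with liver and adipose tissue with muscle, over 6 samples each, since a tissue and its slide cannot be told apart across slides. The gene value was 8.82 ± 0.10 in brain and 8.96 ± 0.08 in liver (SD, n = 6), a difference of −0.14 ± 0.05 (adjusted p = 0.0289), where 34.3% of genes were called. This call held under 6 of 11 alternatives (−0.22 to −0.02) and in 10 of the 24 fits that left out 1 array (−0.17 to −0.09, the smallest without congenic brain replicate 2), and it was lost within congenic mice (−0.10 ± 0.07, adjusted p = 0.326, with 24.3% of genes called) and within B6 mice (−0.18 ± 0.07, adjusted p = 0.0716, with 20.5% called). It was 8.72 ± 0.04 in adipose tissue and 8.77 ± 0.05 in muscle, a difference of −0.06 ± 0.05 that was not called. Exon 6 was 1.04 higher in brain than in liver (adjusted p = 4.7e-08) and exon 15, of 35 bases, 1.39 lower on the log2 scale, at 8.77 to 9.85 in brain and 10.53 to 11.18 in liver. Of the 23 exon rows, 3 were called higher and 4 lower in brain, where 27.8% of exon features were called. Exon 9 read 8.72 to 9.58 in adipose tissue and 10.13 to 10.52 in muscle, a difference of −1.03. Exon 19 read 10.14 to 10.45 in adipose tissue and 9.04 to 9.78 in muscle, a difference of 0.89. Of the 23 exon rows, 1 was called higher and 3 lower in adipose tissue, where 28.6% of exon features were called in either direction. For exon 6 the difference lay in 1 of 3 probes, at 2.26 between brain and liver (adjusted p = 4.4e-07, with 10% of all probes called higher in brain), with 0.14 and −0.09 at the others.

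Zfp937 differed between adipose tissue and muscle over both genotypes. Its gene value was 9.40 ± 0.30 in adipose tissue and 9.03 ± 0.10 in muscle (SD, n = 6, both genotypes), a difference of 0.38 ± 0.09 (adjusted p = 0.00401), and 36.1% of genes were called in this comparison. Within congenic mice the difference was 0.64 ± 0.13 (adjusted p = 0.0012, with 22.3% of genes called). Within B6 mice it was 0.12 ± 0.13 (adjusted p = 0.621, with 21.4% called). These 2 values were not tested against each other, and the interaction of Zfp937 with tissue did not pass (adjusted p = 0.615). The order of the group means was adipose tissue (9.68), liver (9.36), brain (9.31) and muscle (9.04) in congenic mice, and adipose tissue (9.13), liver (9.04), muscle (9.01) and brain (8.97) in B6 mice. Within B6 mice neither tissue pair of a slide differed past the threshold (brain minus liver −0.06 ± 0.13, adjusted p = 0.801). Scand1 was at 11.09 ± 0.12 in adipose tissue and 10.90 ± 0.07 in muscle, a difference of 0.19 ± 0.08 (adjusted p = 0.079), and at 11.04 ± 0.12 in brain and 10.90 ± 0.33 in liver. Znfx1 was at 10.57 ± 0.16 in adipose tissue and 10.74 ± 0.35 in muscle, a difference of −0.16 ± 0.09 that turned to 0.24 (adjusted p = 0.0057) in the authors' probe table. It was at 10.51 in both brain and liver. Zhx3 was at 10.37 ± 0.14 in brain and 10.42 ± 0.17 in liver, and no member but Ncoa3 was called between these tissues.

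Among the 8 group means, those of Zhx3 and Ncoa3 correlated at r = 0.84 and those of Zfp937 and Scand1 at 0.72, while Znfx1 stayed between −0.30 and 0.16 with the other members. These and the following values are descriptions over 8 group means that share slides and arrays. The genes most like Zfp937 were Apmap, an adipocyte membrane protein gene, at r = 0.88, the seminal vesicle gene Svs3a at 0.78 and the phospholipid transfer protein gene Pltp at 0.74. The genes most like Ncoa3 were Ralgapa2 at 0.98, Ccm2l at 0.96 and Matn4 at 0.95. Zhx3 was closest to AF244125 at 0.95, Nkx2-4 at 0.93 and Zfp335 at 0.91. Scand1 was closest to Sec23b at 0.76, Apmap at 0.75 and Zfp937 at 0.72. Znfx1 was closest to BC039771 at 0.85, and to AK082966 and 5430405H02Rik at 0.80.

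Other regulators of the region were taken from 3 lists of chromosome 2 genes. The zinc finger list had 17 of 30 genes measured, the coactivator and chromatin list 19 of 24, and the list of other transcription factors 12 of 16. Of the 42 measured regulators other than the 5 members, 1 was called between genotypes. This was Hnf4a, a nuclear receptor of hepatocytes, at 0.48 ± 0.07 in liver (adjusted p = 8.4e-04) and 0.17 ± 0.04 on average (adjusted p = 0.0162). Of all genes, 0.587% were called in liver and 2.05% on the average. The median change of the 42 was 0.00 on average over tissues, as was that of all 341 genes. Among the zinc finger genes, 12 of 17 lay above 0 on average, with a median of 0.01, and Zfp937 was the one called. Between adipose tissue and muscle 9 of the 42 were called lower and 0 higher, with a median of −0.06 against −0.05 over all genes. Of all genes, 20.2% were called lower and 15.8% higher there. Between brain and liver 5 of the 42 were called higher and 4 lower, where 34.3% of all genes were called in either direction. The other measured neighbours of the members, M64228 by Znfx1, Plcg1 and Lpin3 by Zhx3, and Zmynd8 and Sulf2 by Ncoa3, changed by −0.05 to 0.05 on average, none called.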

How the data were processed

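RNA abundance was measured in 24 samples on a custom 12-well NimbleGen array of 13388 probes; RNA was copied into biotin-labelled cRNA, per the labels' protocols. The deposited scanner files hold the mean intensity of the probes of each exon on a linear scale, per the file headers, in 3919 exon rows. The deposited value table holds the authors' intensity per probe, with column medians from 438.6 to 441.3. The submitters' processing notes name RMA without a version, and no source used here gives the genome build.

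Exon intensities went through normexp background correction (offset 50), quantile normalization and log2. Rows with identical coordinates were averaged to 3099 features, and median polish gave 1 value for each of 341 genes. Groups came from the sample titles. limma 3.58.1 in R 4.3.3 fitted a mean for each of the 8 groups, with Benjamini-Hochberg adjustment over all genes, features or probes and a threshold of 0.05. The log2 of the deposited probe values was fitted the same way. The 3 arrays per group limit the precision. The series design text states biological replicates.

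A test used simulated data of 341 genes, with tissue means and spread taken from the real arrays and independent noise. The fit recovered 85% of genes changed by 0.5 log2 in adipose tissue and 95% on the average over tissues. More genes were changed there than were called in the real genotype comparisons, which eases the adjusted threshold. The rates are therefore not the power of the real comparisons. Figures used matplotlib 3.10.9 in Python 3.11.15. The members, lists and tests were chosen with earlier results of these data known. Named were the 5 genes, exon rows past the threshold in a genotype comparison or else those with the highest and lowest average change, the 3 genes of highest Pearson r over the group means, list genes past a genotype threshold and 1 measured neighbour on each side; single probes, the exon rows named between tissues and the run of Zfp937 probes were chosen after their values were seen. Alternatives covered background, scaling, summary, dim features, the value table, samples fitted, replicate and well-row blocks and each array left out; the pair of arrays high in seminal vesicle genes, the fits per probe, exon features within a tissue, the linear mean of probes, the probe subsets and the tissue differences within a genotype were added after seeing the data. Slide could not be a block within a tissue, since brain and liver were on slide 1 and adipose tissue and muscle on slide 2; all 4 arrays in well row A of slide 1 were congenic. Probe and protein sequences were not used here.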

Additional observations from a re-analysis of the deposited data

How the results depend on the processing

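As reported, 0 members were called between genotypes in brain, liver and muscle, 1 in adipose tissue, 1 on the average over tissues, 0 in the interaction, 1 between brain and liver and 1 between adipose tissue and muscle, and 0 exon features on the average. Of all genes, 1.47% were called in adipose tissue and 2.05% on the average. Between brain and liver 34.3% were called, and between adipose tissue and muscle 36.1%. Counts for the alternatives and with 1 array left out are given without such a share. Without background correction 1 member was called in muscle (Znfx1) and 0 between brain and liver. Median scaling called 1 in liver (Scand1), 2 on the average and 2 between adipose tissue and muscle. The mean of exon features called 1 in muscle, 2 on the average and 0 between brain and liver. Leaving out the dimmest 25% of features gave 0 between brain and liver and 2 between adipose tissue and muscle. The authors' value table called 1 in liver, 2 on the average and 3 between adipose tissue and muscle. The linear mean of its probes called 0 in adipose tissue, 0 between brain and liver and 2 between adipose tissue and muscle. A fit of only the samples compared called 0 between brain and liver and 3 between adipose tissue and muscle. The well row as a block left 0 in adipose tissue and 0 on the average, where Zfp937 stood at 0.34 (adjusted p = 0.072). Without the pair of arrays high in seminal vesicle genes, 0 were called in adipose tissue. A random block of replicate number within genotype called 1 exon feature on the average. For the changes of single members, the sign turned in 27 pairs of a change and an alternative, where the same change can count more than once. With the authors' value table Znfx1 turned to 0.17 in brain, −0.027 in liver, −0.066 in adipose tissue, −0.21 in muscle, −0.032 on the average, 0.064 between brain and liver and 0.24 between adipose tissue and muscle (the one of the 27 that was called, adjusted p = 0.0057), Zhx3 to −0.047 in adipose tissue, and Zfp937 to 0.084 and Scand1 to −0.0030 between brain and liver. With the linear mean of its probes Ncoa3 turned to −0.070 in brain, 0.0065 in liver, 0.026 in adipose tissue and 0.015 on the average, and Znfx1 to 0.12 between brain and liver. Median scaling gave Ncoa3 −0.062 in brain and 0.013 in adipose tissue, and Zhx3 −0.0038 in adipose tissue. The average change of Ncoa3 turned to 0.0015 without background correction, 0.0040 with the mean of exon features, 0.017 without the dimmest features and 0.061 with the well row, where its liver change was 0.091. Its brain change without the dimmest features was −0.044. Without the pair of arrays high in seminal vesicle genes, Zhx3 was −0.029 in adipose tissue and −0.0079 on the average, and Ncoa3 −0.0053 in muscle. The cause of these moves was not tested. Zfp937 kept its direction in adipose tissue under all 11 alternatives (0.41 to 0.56, called in 7, adjusted p 0.0068 to 0.094) and on the average under all 10 (0.22 to 0.34, called in 9).

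With 1 array left out in turn, counts ran from 0 to 1 in liver, adipose tissue and muscle, from 1 to 2 on the average and between adipose tissue and muscle, from 0 to 2 between brain and liver and from 0 to 1 for exon features, and stayed at 0 in brain and in the interaction. Zfp937 in adipose tissue spanned 0.52 to 0.56 and was called in 10 of 24; each adipose array left out, congenic or B6, ended the call, with an adjusted p of at most 0.193. Ncoa3 between brain and liver was called in 10 of 24. Signs also turned with 1 array left out for Ncoa3 in brain (−0.048 to 0.096), liver (−0.095 to 0.0063), muscle (−0.040 to 0.055) and on the average (−0.027 to 0.0086), for Zhx3 in brain (−0.017 to 0.15), liver (−0.036 to 0.17), adipose tissue (−0.054 to 0.077) and on the average (−0.011 to 0.041), for Zfp937 in muscle (−0.048 to 0.11) and between brain and liver (−0.11 to 0.051), and for Znfx1 between brain and liver (−0.050 to 0.051), none called. Zfp937 passed in liver without B6 liver replicate 1 (0.53, adjusted p = 0.011).

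With the replicate number as a block, 0 members were called in adipose tissue (Zfp937, adjusted p = 0.069), 1 in muscle (Znfx1, adjusted p = 0.039) and 2 on the average. The numbers did not pair the samples: deviations of same-numbered samples correlated at −0.45 to 0.51 over 12 pairs, above 0.1 in 5. Precision is limited by 3 arrays per group. In the simulated data, 29% of exon features changed by 0.5 log2 in adipose tissue were recovered, against 85% of genes. These rates are not the power of the real comparisons.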
